A study of Mus musculus with 10 samples.

Results

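Krüppel-like factors (KLFs) are transcription factors with C2H2 zinc fingers at their C-terminal end, and accessible chromatin at 10 of their genes was compared between mouse brain and lung. The genes were Klf2, Klf3, Klf4, Klf6, Klf7, Klf9, Klf10, Klf11, Klf13 and Klf15. An accessible region (peak) was counted to a gene if it overlapped the gene or lay within 5000 bp of its ends, the nearest gene end deciding between several genes. This gave 38 peaks out of 37511 nuclear peaks in the deposited table, between 1 peak at Klf2 and 9 peaks each at Klf7 and Klf13. All 38 passed the filter of at least 10 reads summed over 10 libraries.

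The libraries came from ATAC-seq, in which the transposase Tn5 cuts open chromatin, on nuclei that were treated with Tn5 in fresh frozen sections of WT C57BL/6J mice and then cut out with a laser. The groups were brain at 200 nuclei (n = 2), brain at 50 nuclei (n = 2), lung at 200 nuclei (n = 3) and lung at 50 nuclei (n = 3). The 200 nuclei were taken as 10 areas of about 20 nuclei and the 50 nuclei one by one, so nuclei number and capture mode changed together. The labels speak of technical replicates and give neither the number nor the age of the mice, so the p-values measure the spread between libraries, which may be technical.

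KLFs bind GC boxes and CACCC boxes through their zinc fingers and differ in the partners they recruit. KLF2 and KLF4 maintain the quiescent, anti-inflammatory state of endothelial cells under blood flow, KLF3 represses genes through the corepressor CtBP, and KLF9, KLF10, KLF11 and KLF13 repress through SIN3A. KLF7 is known from neurons, where it promotes axon growth, and KLF9 and KLF15 are induced by glucocorticoids.

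The start-site sequences of Klf2, Klf3, Klf6 and Klf11 are shown because their peaks differ in outcome: the peaks at Klf2 and Klf3 were lower in brain, and those at Klf6 and Klf11 did not pass the test. Each line holds the 250 bases before the RefSeq start (build GRCm38.p6), 5′ to 3′ on the strand given. Capitals mark the GC box, spelled GGGCGG. They also mark the CACCC box, spelled as its name, and in Klf2 a MEF2 motif. All were searched on both strands.
Klf2, chr8:72318812-72319061, plus strand: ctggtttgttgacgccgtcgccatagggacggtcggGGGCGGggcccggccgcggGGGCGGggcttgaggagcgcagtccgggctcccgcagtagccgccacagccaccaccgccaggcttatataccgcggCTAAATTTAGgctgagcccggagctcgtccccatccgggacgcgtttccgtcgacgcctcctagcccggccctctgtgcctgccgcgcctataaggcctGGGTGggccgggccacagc
Klf3, chr5:64803271-64803520, plus strand: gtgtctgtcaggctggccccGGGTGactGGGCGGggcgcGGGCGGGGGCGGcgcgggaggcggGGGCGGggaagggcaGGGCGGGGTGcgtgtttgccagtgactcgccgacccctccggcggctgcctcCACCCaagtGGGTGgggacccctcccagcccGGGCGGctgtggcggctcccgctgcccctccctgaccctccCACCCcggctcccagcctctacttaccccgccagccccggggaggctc
Klf6, chr13:5861239-5861488, plus strand: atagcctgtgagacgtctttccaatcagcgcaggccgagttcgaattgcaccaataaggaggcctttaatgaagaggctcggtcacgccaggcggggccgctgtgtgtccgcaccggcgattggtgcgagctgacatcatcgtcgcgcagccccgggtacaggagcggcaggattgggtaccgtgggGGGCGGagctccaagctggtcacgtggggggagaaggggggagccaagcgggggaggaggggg
Klf11, chr12:24651121-24651370, plus strand: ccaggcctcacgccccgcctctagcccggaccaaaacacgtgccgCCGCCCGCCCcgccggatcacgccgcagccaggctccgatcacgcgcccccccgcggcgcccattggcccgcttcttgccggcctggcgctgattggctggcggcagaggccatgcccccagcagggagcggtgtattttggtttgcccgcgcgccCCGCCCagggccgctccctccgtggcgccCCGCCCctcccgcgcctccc

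RefSeq start sequences were matched for 9 of the 10 members, all but Klf10. On either strand, a GC box was found in 8 of these 9 windows, against 32.7% of 32851 RefSeq windows of the same length. A CACCC box was found in 6 of 9, against 52.0% of all windows. GC boxes and CACCC boxes shared bases at 1 place in Klf3 and 1 place in Klf13. The MEF2 motif, the site bound by the MEF2 factors that activate Klf2 under flow, was found in Klf2 alone of the 9, 118 bases before the start, and in 2.92% of all windows. The CArG motif of serum response factor was found in 0 of the 9 and in 1.47% of all windows. The 9 windows held 59.2% to 78.4% G and C and 13 to 37 CpG dinucleotides, against medians of 52.4% and 6. A member peak overlapped each of the 9 windows, covering 112 bp of it at Klf7, 98 bp at Klf15 and all 250 bp at the other 7. These matches describe letters in a window and were not tested as binding sites.

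Levels are reads per 1000000 reads in nuclear peaks of the library (RPM), and log2 folds are brain over lung with their standard errors (SE). Adjusted p-values are from edgeR's quasi-likelihood test with Benjamini-Hochberg adjustment over 37466 peaks, and a peak is called changed at an adjusted p under 0.05. Brain libraries held 319307 to 465489 nuclear reads and lung libraries 340697 to 3075377, and mitochondrial DNA took 93.4% to 95.8% of brain reads and 24.7% to 58.0% of lung reads. Lung 50-nuclei replicates 2 and 3 stood apart, with reads in 60.9% and 56.1% of nuclear peaks. Results without both are given where they change a call; 1 lung library of 50 nuclei is then left. Leaving out a brain library likewise leaves 1 in its group. Such a lone library is assumed to vary like those of the other groups. The neuron markers were open in brain, with 10 of 15 peaks called higher and a summed level of 312 to 426 RPM in brain and 21.9 to 99.8 RPM in lung. The alveolar type 2 list did not separate the tissues (394 to 432 RPM in brain and 308 to 434 RPM in lung), and Sftpc, its defining marker, had no peak. Alveolar type 1 markers had 6 of 26 peaks called lower in brain, at Clic5 and Gprc5a.

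Accessibility was lower in brain than in lung at 10 of the 38 KLF peaks, spread over Klf2, Klf3, Klf7, Klf10 and Klf13, and none was called higher in brain. Of all tested peaks 4.39% were called lower in brain and 10.2% were called in either direction. Without lung 50-nuclei replicates 2 and 3, 17 of the 38 were called lower, the 10 among them, and 12.4% of all peaks were then called lower. The median log2 fold of the 38 was -0.72, against 0.070 over all peaks, and 30 of the 38 folds were negative. In 12 of the 38 peaks all 4 brain libraries lay below all 6 lung libraries, which held for 4.94% of all tested peaks. In none of the 38 did all brain libraries lie above all lung libraries (8.4% of all peaks). Summed over the 38 peaks, the level was 1830 and 2064 RPM in brain at 200 nuclei and 1686 and 1854 RPM at 50 nuclei, against a lowest of 2710, a median of 3010 and a highest of 3636 RPM in lung. The ranges of the tissues did not overlap. In bulk libraries, fewer nuclei of a cell type and less accessibility per nucleus cannot be told apart.

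**Figure D1:**
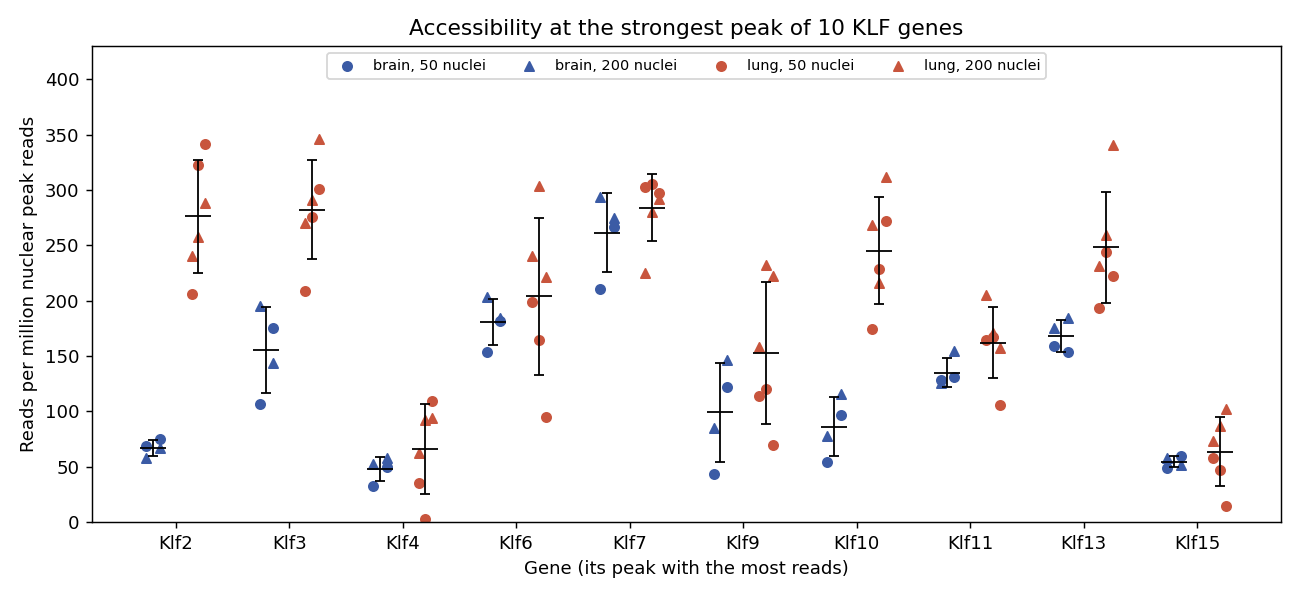
RPM (y axis) at the peak with the most reads of each of the 10 KLF genes (x axis), with each point a library (circles 50 nuclei, triangles 200 nuclei), brain left of lung, and bars for the mean and SD (n = 4 brain, n = 6 lung). The brain points lie below all lung points at Klf2, Klf3, Klf10 and Klf13, and overlap them at the other 6 genes.

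**Figure D2:**
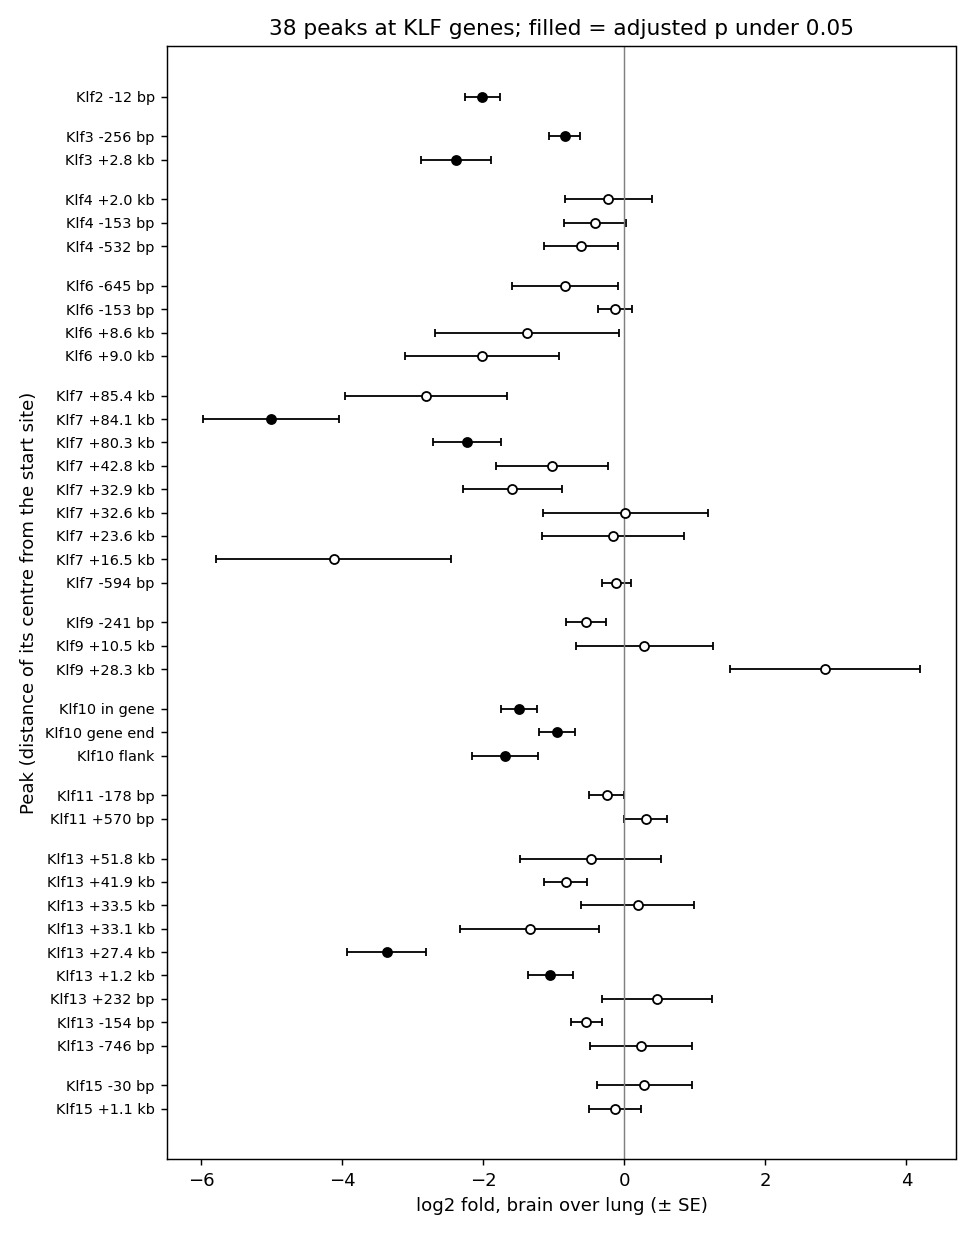
Log2 fold of brain over lung with its SE (x axis) for each of the 38 peaks, named by the distance of their centre from the start site (y axis; by place for Klf10, whose start site is not given). The 10 filled points passed an adjusted p of 0.05, and all 10 lie left of 0.

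Among the activators Klf2, Klf4, Klf6 and Klf7, peaks were called lower in brain at Klf2 and Klf7. Klf2, the flow-responsive factor of endothelium, had a single peak (chr8:72318747-72319354) that covers its whole start window. It held 57.7 and 66.6 RPM in brain at 200 nuclei and 68.4 and 75.2 RPM at 50 nuclei, against a lowest of 206, a median of 273 and a highest of 341 RPM in lung. The tissues did not overlap. The log2 fold was -2.01 ± 0.25 (SE; edgeR adjusted p = 1.08e-06). Per length, this was the most closed of the members' strongest peaks in brain, at 110 RPM per kb, and was at 455 RPM per kb in lung, close to the 458 RPM per kb of the Klf13 start peak.

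Klf4, which shares functions with Klf2 in endothelium and is one of the pluripotency factors, was open in both tissues. Its strongest peak, at the start site (chr4:55532421-55532835), held 52.7 and 58.0 RPM in brain at 200 nuclei and 32.8 and 50.1 RPM at 50 nuclei. In lung the lowest was 2.94, the median 77.1 and the highest 110 RPM, so that the brain libraries lay within the lung range. The log2 fold was -0.42 ± 0.44 (95% interval -1.30 to 0.46; edgeR adjusted p = 0.581), and the sign turned to 0.11 without lung 50-nuclei replicate 3. The other 2 peaks averaged 21.9 and 23.1 RPM in brain, against 26.9 and 35.2 RPM in lung, and were not called. The difference between the folds of Klf2 and Klf4 was not tested.

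At Klf6, a broadly expressed injury-response activator, the start peak (chr13:5861086-5861586) held 203 and 185 RPM in brain at 200 nuclei and 153 and 182 RPM at 50 nuclei. In lung the lowest was 94.9, the median 210 and the highest 304 RPM, and the tissues overlapped. The log2 fold was -0.13 ± 0.24 (95% interval -0.62 to 0.35; edgeR adjusted p = 0.771). The other 3 Klf6 peaks averaged 1.95 to 11.7 RPM in brain and 6.21 to 25.5 RPM in lung, and none was called. The sign at the start turned to 0.16 without lung 50-nuclei replicate 1, and 1 of the weak peaks was called lower without lung 50-nuclei replicates 2 and 3 (edgeR adjusted p = 0.0188).

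Klf7 was open at its start in both tissues and lower in brain at peaks deep inside the gene. The start-site peak (chr1:64121528-64122439) held 293 and 275 RPM in brain at 200 nuclei and 211 and 266 RPM at 50 nuclei, against a lowest of 225, a median of 295 and a highest of 305 RPM in lung. Its ranges overlapped, with a log2 fold of -0.11 ± 0.20 (95% interval -0.52 to 0.30; edgeR adjusted p = 0.775), and the fold was 0.040 without lung 50-nuclei replicate 1. The peak 84148 bp downstream of the start (chr1:64037104-64037377) held 0 reads in both brain libraries of 200 nuclei and 13.7 and 15.7 RPM at 50 nuclei. In lung it had a lowest of 17.6, a median of 45.6 and a highest of 76.7 RPM. All brain libraries lay below all lung libraries. At 200 nuclei the level was at least 13.5-fold lower in brain, taking 3 reads over the group (3.47 RPM) as the limit that a count of 0 allows and 46.7 RPM as the pooled lung level. The fitted log2 fold of -5.01 ± 0.96 (edgeR adjusted p = 0.000544) depends on the prior count of the fit. Its neighbour 80252 bp downstream (chr1:64040916-64041357) held 10.0 and 6.44 RPM in brain at 200 nuclei and 24.6 and 12.5 RPM at 50 nuclei, against a lowest of 41.1, a median of 41.8 and a highest of 110 RPM in lung. These also did not overlap, and the log2 fold was -2.23 ± 0.49 (edgeR adjusted p = 0.00202). The remaining 6 peaks, all in the gene body, averaged 1.79 to 10.3 RPM in brain and 6.63 to 27.5 RPM in lung, and none was called. Without lung 50-nuclei replicates 2 and 3 3 of these 6 were called lower, with edgeR adjusted p = 0.0147, 0.00800 and 0.0126.

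Klf3, the CtBP-binding repressor, was lower in brain at both of its peaks. The start-site peak (chr5:64802854-64803675) held 196 and 144 RPM in brain at 200 nuclei and 107 and 175 RPM at 50 nuclei, against a lowest of 209, a median of 283 and a highest of 346 RPM in lung. The tissues did not overlap, and the log2 fold was -0.85 ± 0.22 (edgeR adjusted p = 0.0117). This call was lost without lung 200-nuclei replicate 3 (edgeR adjusted p = 0.0564), brain 50-nuclei replicate 1 (0.129) or brain 200-nuclei replicate 2 (0.0895). A peak 2779 bp downstream (chr5:64806144-64806456) held 5.01 and 12.9 RPM in brain at 200 nuclei and 30.1 and 18.8 RPM at 50 nuclei. In lung it had a lowest of 9.13, a median of 90.0 and a highest of 111 RPM, where 1 lung library fell within the brain range. The log2 fold was -2.38 ± 0.50 (edgeR adjusted p = 0.00133), and no left-out library ended this call.

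Among the SIN3A-binding repressors, Klf10 and Klf13 were lower in brain and Klf9 and Klf11 were not called. Klf10, a TGF-beta-inducible early gene, had 3 peaks and all 3 were called. The peak inside the gene (chr15:38298911-38299679) held 77.7 and 116 RPM in brain at 200 nuclei and 54.7 and 97.1 RPM at 50 nuclei, against a lowest of 175, a median of 249 and a highest of 312 RPM in lung. Its log2 fold was -1.49 ± 0.25 (edgeR adjusted p = 0.000155). The peak at the gene end (chr15:38300662-38301200) held 82.8 and 146 RPM in brain at 200 nuclei and 112 and 78.3 RPM at 50 nuclei, against a lowest of 166, a median of 198 and a highest of 264 RPM in lung. The flanking peak (chr15:38302331-38302527) held 27.6 and 12.9 RPM in brain at 200 nuclei and 21.9 and 12.5 RPM at 50 nuclei, against a lowest of 37.7, a median of 51.5 and a highest of 96.9 RPM in lung. None of the 3 overlapped between tissues. The log2 fold was -0.95 ± 0.25 at the gene end (edgeR adjusted p = 0.0116) and -1.69 ± 0.47 in the flank (edgeR adjusted p = 0.0162). The gene-end call was lost without lung 200-nuclei replicate 3 (0.0563), brain 50-nuclei replicate 2 (0.105) or brain 200-nuclei replicate 1 (0.130). The flanking call was lost without lung 200-nuclei replicate 2 (0.0931), brain 50-nuclei replicate 1 (0.0537) or 2 (0.113), or brain 200-nuclei replicate 2 (0.110).

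Klf13, known from human T cells as an activator of the chemokine gene CCL5, was called at 2 of 9 peaks. The peak 27374 bp downstream of the start (chr7:63911421-63911662) held 2.51 and 6.44 RPM in brain at 200 nuclei and 8.21 and 9.40 RPM at 50 nuclei, against a lowest of 34.9, a median of 57.9 and a highest of 144 RPM in lung. The tissues did not overlap, and the log2 fold was -3.37 ± 0.56 (edgeR adjusted p = 9.62e-05). The start-site peak (chr7:63938798-63939340), the strongest of the gene, held 176 and 185 RPM in brain at 200 nuclei and 159 and 153 RPM at 50 nuclei, against a lowest of 193, a median of 237 and a highest of 340 RPM in lung. Here too the tissues did not overlap, but the log2 fold of -0.54 ± 0.22 missed the threshold (edgeR adjusted p = 0.113), and among left-out libraries it passed without lung 50-nuclei replicate 3 (0.0472) or without both replicates 2 and 3 (0.0294). The peak 1172 bp downstream (chr7:63937554-63937933) held 22.6 and 58.0 RPM in brain at 200 nuclei and 60.2 and 56.4 RPM at 50 nuclei, against a lowest of 70.4, a median of 99.2 and a highest of 141 RPM in lung. Its log2 fold was -1.05 ± 0.33 (edgeR adjusted p = 0.0327), and the tissues did not overlap. This call was lost under 7 of 10 left-out libraries, namely brain 200-nuclei replicate 1 (adjusted p = 0.231), brain 50-nuclei replicates 1 (0.122) and 2 (0.136), lung 200-nuclei replicates 1 (0.0589), 2 (0.119) and 3 (0.0650), and lung 50-nuclei replicate 1 (0.0613). It was also lost with edgeR's default filter on low counts (0.0616). The other 6 Klf13 peaks averaged 5.56 to 63.7 RPM in brain and 10.8 to 116 RPM in lung and were not called, and 1 of them, 41882 bp downstream, was called lower without lung 50-nuclei replicates 2 and 3 (0.0316).

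Klf9, a glucocorticoid-inducible repressor, had its strongest peak at the start (chr19:23140655-23141315), with 85.3 and 146 RPM in brain at 200 nuclei and 43.8 and 122 RPM at 50 nuclei, against a lowest of 69.4, a median of 139 and a highest of 232 RPM in lung. The tissues overlapped, and the log2 fold was -0.54 ± 0.29 (95% interval -1.13 to 0.041; edgeR adjusted p = 0.235), passing the threshold without lung 50-nuclei replicates 2 and 3 (0.0175). Its other 2 peaks averaged 10.96 and 7.81 RPM in brain, against 8.83 and 3.44 RPM in lung, and were not called. Klf11, the second TGF-beta-inducible member, held at its start-site peak (chr12:24650911-24651474) 125 and 155 RPM in brain at 200 nuclei and 129 and 132 RPM at 50 nuclei, against a lowest of 106, a median of 166 and a highest of 206 RPM in lung. The groups overlapped, with a log2 fold of -0.25 ± 0.25 (95% interval -0.74 to 0.25; edgeR adjusted p = 0.563). Its second peak averaged 112 RPM in brain and 90.4 RPM in lung and was not called. At Klf15, a glucocorticoid-inducible regulator of metabolism, the strongest peak (chr6:90463477-90463847) held 57.7 and 51.6 RPM in brain at 200 nuclei and 49.3 and 59.5 RPM at 50 nuclei, against a lowest of 14.6, a median of 66.0 and a highest of 102 RPM in lung. The brain libraries lay within the lung range (log2 fold -0.13 ± 0.37, 95% interval -0.88 to 0.62; edgeR adjusted p = 0.860), and the fold was 0.26 without lung 50-nuclei replicate 1. Its other peak averaged 22.5 RPM in brain and 18.3 RPM in lung and was not called.

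**Figure D3:**
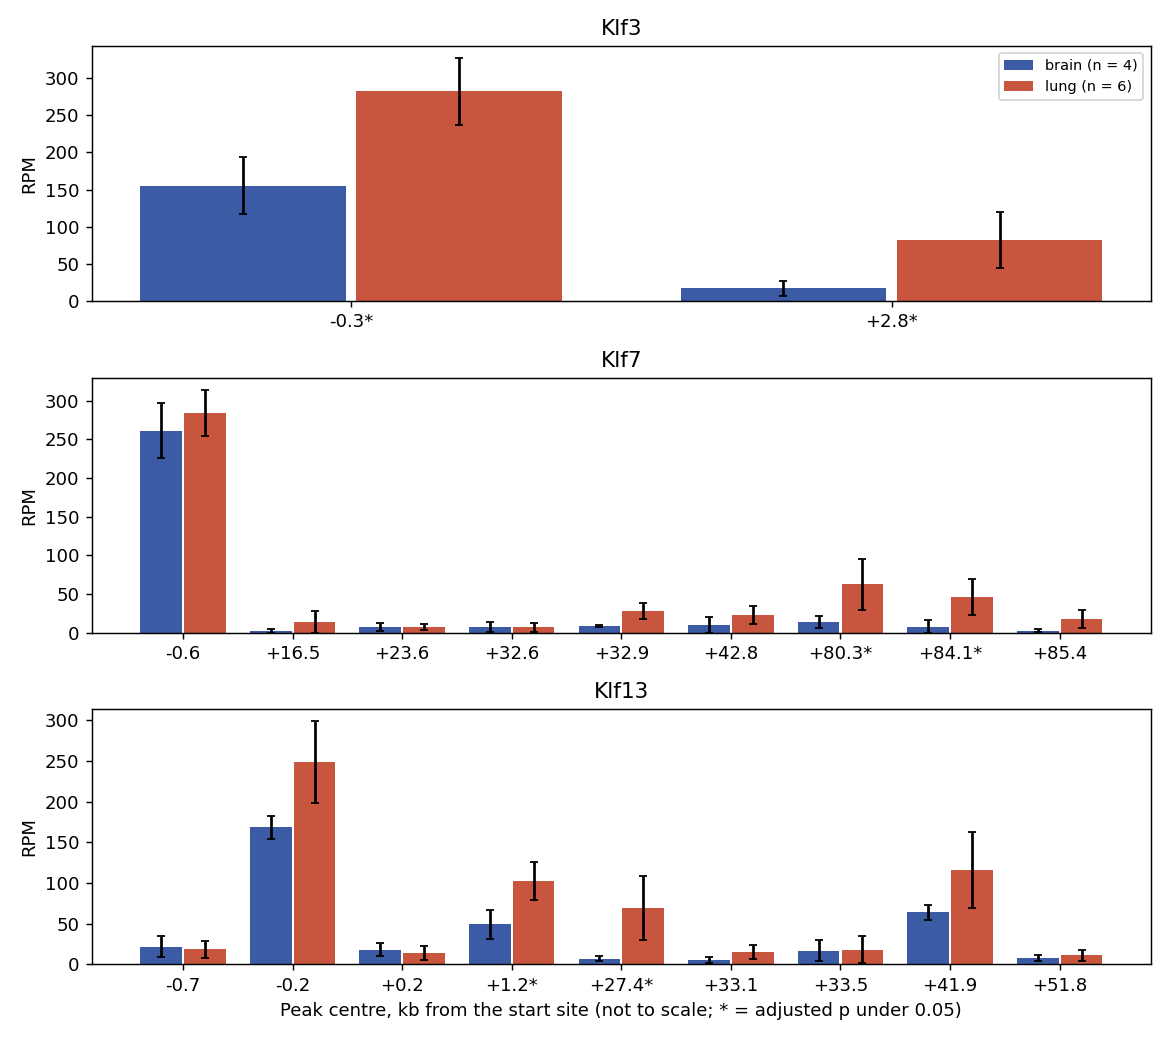
Mean RPM (bars; error bars SD) at each peak of Klf3, Klf7 and Klf13, ordered from the start site into the gene (x axis in kb, not to scale), with brain (n = 4) left of lung (n = 6). At Klf7 the start peak averages 261 RPM in brain and 284 RPM in lung, and the starred peaks deep in the gene are lower in brain.

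Whether a peak's tissue difference differed from that of the other peaks of its gene was tested with edgeR's diffSpliceDGE. Of the 37 KLF peaks in genes with more than 1 peak, 2 were called, against 2.2% of 22890 peaks. The peak 84148 bp into Klf7 was lower in brain relative to its gene by a log2 difference of -3.06 (edgeR adjusted p = 0.00661), and that 27374 bp into Klf13 by -1.81 (edgeR adjusted p = 0.00761). The Klf7 difference rests on 0 reads in both brain libraries of 200 nuclei, so its size depends on the prior count of the fit. The Klf7 call was lost without brain 200-nuclei replicate 1 (0.119) or 2 (0.104), and the Klf13 call without each of the 4 brain libraries in turn (0.0620 to 0.105). Without lung 50-nuclei replicate 3 the count was 4, with 4.57% of all peaks called, and without replicates 2 and 3 it was also 4, with 6.59%. Across the family, 3 of 17 peaks at gene ends, 6 of 19 in gene bodies and 1 of 2 in flanks were called lower in brain, against 1.63%, 5.33% and 7.25% of all peaks of those classes.

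With reads summed over all peaks of a gene, the same 5 genes were called lower in brain, against 7.11% of 12669 genes (12.5% in either direction). The log2 folds were -2.21 ± 0.21 at Klf2, -1.46 ± 0.17 at Klf10, -1.24 ± 0.17 at Klf3, -0.94 ± 0.17 at Klf13 and -0.78 ± 0.15 at Klf7, with edgeR adjusted p between 3.07e-05 and 0.00297. They kept these calls without any 1 library. Klf4 (-0.66 ± 0.33), Klf9 (-0.57 ± 0.26), Klf6 (-0.48 ± 0.19), Klf15 (-0.22 ± 0.29) and Klf11 (-0.20 ± 0.16) did not pass. The gene sums were normalized apart from the peaks and without mitochondrial peaks, so gene and peak folds are not on the same scale. The reads of Klf2, with 1 peak, gave -2.21 here and -2.01 in the peak fit. Without lung 50-nuclei replicate 3, Klf6 (edgeR adjusted p = 0.0113) and Klf9 (0.0302) passed, and 10.7% of all genes were called lower. Without replicates 2 and 3 together both passed as well (0.00787 and 0.00860), for 7 genes in all, and 13.4% of all genes were called lower. Per kb of peak, the most open gene in brain was Klf6 at 228 RPM per kb and the least open was Klf2 at 110 RPM per kb. In lung Klf2 was the most open at 455 RPM per kb and Klf15 the least at 163 RPM per kb. These values pool strong and weak peaks, and Klf2 had 1 peak while Klf7 and Klf13 had 9 each. The Klf13 start peak alone was at 458 RPM per kb in lung.

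At 200 nuclei alone, 6 of the 38 peaks were called lower in brain (1.24% of all peaks, and 2.24% in either direction), at Klf2, Klf10, Klf13, Klf3 and 2 at Klf7. At 50 nuclei alone 3 were called (0.488% of all peaks, and 1.41% in either direction), at Klf2, Klf10 and Klf13. Both counts moved with single left-out libraries, and so did the share of all peaks. At 200 nuclei none was called without brain 200-nuclei replicate 1 and 1 without replicate 2, settings that leave 1 brain library in the comparison and call 0.0134% and 0.139% of all peaks lower. Without lung 200-nuclei replicate 3 the count was 3 (0.305% of all peaks), and without lung 50-nuclei replicates 2 and 3 it was 15 (9.56% of all peaks). At 50 nuclei the count and the share of all peaks both fell without brain 50-nuclei replicate 1 or 2, which again leaves 1 brain library. The count was 1 without lung 200-nuclei replicate 2 or 3 (0.192% and 0.227% of all peaks). Without lung 50-nuclei replicate 3 the count was 6 (1.35% of all peaks). The count and the share of all peaks also fell without brain 200-nuclei replicate 1 or 2, which leaves 1 brain library of 200 nuclei. Both rose without lung 50-nuclei replicates 2 and 3, which leaves 1 lung library of 50 nuclei. The Klf2 log2 fold was -2.16 ± 0.35 at 200 nuclei (edgeR adjusted p = 0.000388) and -1.87 ± 0.35 at 50 nuclei (edgeR adjusted p = 0.00415). The interaction of tissue and size was called at none of the 38 peaks and at 0% of all peaks by edgeR, and 4 of the 38 had an unadjusted p under 0.05 (4.15% of all peaks), among them both called Klf7 peaks and the Klf3 gene-body peak. Comparing 200 with 50 nuclei within a tissue gave no call in lung (8 of 38 with an unadjusted p under 0.05, 8.2% of all peaks) or in brain (1 of 38, 1.14% of all peaks). DESeq2 called none of the 38 in these 3 comparisons. In lung the Klf9 start peak averaged 204 RPM at 200 nuclei and 101 RPM at 50 nuclei, with an unadjusted p of 0.00115 and an edgeR adjusted p of 0.487.

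**Figure D4:**
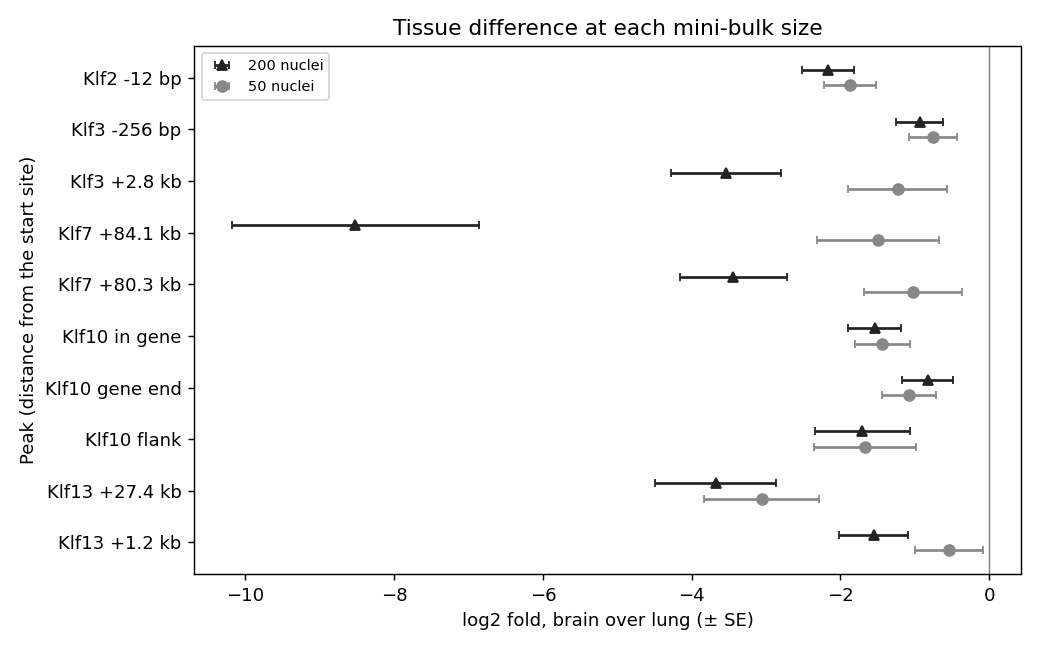
Log2 fold of brain over lung with its SE (x axis) for the 10 called peaks (y axis) at 200 nuclei (triangles) and 50 nuclei (circles). The folds at both sizes lie below 0 for all 10 peaks; that of the Klf7 peak at +84.1 kb at 200 nuclei rests on 0 brain reads and depends on the prior count.

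The KLF genes outside the set, Klf1, Klf5, Klf8, Klf12 and Klf16, had 11 tested peaks, and none was called by edgeR (0 with an unadjusted p under 0.05) or by DESeq2, with a summed level of 256 to 395 RPM in brain and 281 to 399 RPM in lung. Klf14 and Klf17 had no peak. For this list and those that follow, the edgeR shares over all tested peaks are those given above. They were 4.39% called lower and 10.2% called in either direction, and 25.1% had an unadjusted p under 0.05. DESeq2 called 5.68% of all tested peaks lower and 14.7% in either direction. Of 19 peaks at the related Sp genes, 2 were called higher in brain, at Sp7 and Sp9, and none lower. The corepressors and acetyltransferases that KLFs recruit (Sin3a, Sin3b, Ctbp1, Ctbp2, Hdac1, Hdac2, Ep300, Crebbp and Kat2b) had 33 peaks, and none was called by edgeR (6 with an unadjusted p under 0.05), while DESeq2 called 1 higher in brain. Upstream regulators of Klf2 and Klf4 had 62 peaks, of which 4 were called lower in brain by edgeR, 2 at Hdac7 and 1 each at the kinase Map3k3 and the flow sensor Piezo1, and 1 higher at Mef2d. DESeq2 called 7 of the 62 lower and 0 higher, so the Mef2d call was not shared. Of 12 peaks at endothelial targets of KLF2 and KLF4, 3 were lower in brain, at S1pr1 (log2 fold -3.30 ± 0.52), Edn1 (-2.18 ± 0.52) and Thbd (-2.01 ± 0.36), and 1 was higher at Adamts4 (3.93 ± 1.31). DESeq2 called 3 of these peaks lower and 2 higher. Nos3, Vcam1, Sele and Adamts5 of this list had no peak. The list was not split by whether KLF2 and KLF4 raise or lower a target. Of 33 peaks at glucocorticoid-response genes, 7 were lower in brain, 3 at Per1 and 4 at Zbtb16, and 1 was higher at Sgk1.

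Endothelial markers moved with the KLF peaks: 25 of 58 peaks at 13 endothelial genes were called lower in brain by edgeR and none higher, and DESeq2 called 25 lower and 1 higher. Their summed level was 534 to 772 RPM in brain and 1718 to 2543 RPM in lung, and none of the 13 genes was at 0 in any library. The part of endothelial nuclei in the KLF differences was not tested. Alveolar type 1 markers summed to 213 to 315 RPM in brain and 421 to 716 RPM in lung, without overlap. By edgeR 6 of 26 peaks were called lower, and by DESeq2 8 lower and 1 higher. Clic5, Gprc5a, Hopx, Pdpn and Aqp5 averaged higher in lung, with Clic5 at 55.0 RPM in brain and 279 RPM in lung. Ager (14.6 RPM in brain and 12.2 RPM in lung) and Rtkn2 (64.1 and 55.3 RPM) averaged higher in brain. Pdpn was at 0 in 1 brain and 1 lung library, and Ager in 1 lung library. Immune markers summed to 127 to 159 RPM in brain and 161 to 276 RPM in lung, with 2 of 11 peaks lower in brain, both at Cd74, and no peak at Itgam or Cd3e. The part of alveolar type 1 or immune nuclei in the result was not tested either. Of the other marker lists, 4 of 13 oligodendrocyte peaks, 1 of 6 astrocyte peaks and 1 of 12 alveolar type 2 peaks were called higher in brain, and none of 8 smooth muscle and pericyte peaks was called by edgeR (3 with an unadjusted p under 0.05), while DESeq2 called 2 of these higher.

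Over the 10 libraries, the peaks most like the Klf2 peak among 12856 with at least 20 RPM were at Tmem94, Alas1, Ifngr1, Ccnd3 and Cttnbp2nl, with Pearson r of log2(RPM + 1) between 0.983 and 0.993. Among KLF peaks the closest were the Klf13 peak 27374 bp downstream (r = 0.946) and the Klf10 peak inside the gene (r = 0.929), while the Klf6 start peak had r = -0.019 and the Klf4 start peak r = -0.066. These values describe libraries that share tissue and depth, and carry no test.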

How the data were processed

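ATAC-seq was measured in 10 libraries of laser-captured nuclei. The authors deposited 1 table of whole-number counts for 37513 peaks (mm10), not normalized. Per the submitters' processing notes the tools included Bowtie2 2.4.5, MACS2 2.2.7.1 and SAMtools 1.14. Peak merging, duplicate removal, the Tn5 shift, counting by reads or fragments and the coordinate base are unstated in the labels. Repeated reads of 1 fragment would widen the spread between libraries of few nuclei.

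Peaks were placed on RefSeq genes of GRCm38.p6; gene ends were within 1000 bp of an end. edgeR 4.0.16 in R 4.3.3 fitted a mean for each of 4 groups with TMM normalization, after a filter of 10 reads, and DESeq2 1.42.0 was an alternative. The peak fit kept the mitochondrial peaks in the table. With nuclear peaks only, 3.85% of 37464 peaks were called lower in brain, against 4.39% in the main fit, and the called KLF peaks stayed called. SE is the absolute log2 fold divided by the root of F. The scripts were tested on simulated data. Peaks past the threshold and the peak with the most reads of each gene are given in full. The members and lists were chosen with earlier results of these data known. Counting error and the limit for a count of 0 cover counting only.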

Additional observations from a re-analysis of the deposited data

Results flagged for a closer look

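In 3 of 34 groups examined, 1 library lay apart from the rest by Dixon's criterion, which chance gives in about 1 in 20 groups. In brain, 200-nuclei replicate 1 had 22.6 RPM at the Klf13 peak 1172 bp downstream of the start, and the other brain libraries had 56.4 to 60.2 RPM. In lung, 50-nuclei replicate 3 had 9.13 RPM at the Klf3 gene-body peak, where the other lung libraries had 81.0 to 111 RPM. Lung 200-nuclei replicate 1 had 225 RPM at the Klf7 start-site peak, against 280 to 305 RPM in the other lung libraries.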

How the results depend on the processing

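Of 502 comparisons of 29 single peaks and genes with an alternative, 449 kept direction and side of the threshold, 28 lost the call, 20 gained it and 5 changed sign. Scaling to library totals, mitochondrial reads included, called 37 peaks over both sizes, 30 at 50 nuclei, 37 at 200 nuclei and 10 genes, all lower in brain, as were 80.3%, 52.5% and 78.2% of all peaks and 90.5% of all genes; under this scaling the medians over all peaks were themselves -3.34, -2.91 and -3.78 on the log2 scale, and over all genes -3.23. Without lung 50-nuclei replicates 2 and 3 together, 17 peaks were called (all 10 among them), 5 at 50 nuclei, 15 at 200 nuclei, 7 genes and 4 peaks against the others of their gene; of all features, 22.3%, 4.09%, 16.6%, 25.5% and 6.59% were then called in either direction; the lone lung library of 50 nuclei is then assumed to vary like the other groups. Leaving out 1 library at a time gave 7 to 14 peaks, 0 to 6 at 50 nuclei, 0 to 9 at 200 nuclei, 5 to 7 genes and 0 to 4 peaks against their gene. Without 1 lung library, 2.39% (200-nuclei replicate 3) to 8.65% (50-nuclei replicate 3) of all peaks were called lower over both sizes. For all genes these shares were 4.39% and 10.7%. Without 1 lung library, the share of peaks called lower ran from 0.192% to 1.35% at 50 nuclei and from 0.305% to 4.19% at 200 nuclei. Against their gene, 0.885% to 5% of peaks were then called in either direction. Without 1 brain library, which leaves 1 in its group, the shares over both sizes were lower still for peaks and no higher for genes. With the replicate block, 8 of 38 peaks, 6 at 200 nuclei, 1 at 50 nuclei, 6 genes and 0 peaks against their gene were called. Of all features, 5.45%, 1.42%, 0.948%, 7.32% and 0.612% were then called in either direction. edgeR's default filter ended the Klf13 call 1172 bp downstream (adjusted p = 0.0616). The block ended the calls of the Klf3 start peak (adjusted p = 0.0534) and the Klf13 peak 1172 bp downstream (0.0519). None of 13 correlations of same-numbered libraries, taken as deviations from group means, exceeded 0.1 (-0.030 to 0.019). With 2 or 3 libraries per group and few reads at many peaks, these correlations cannot tell whether same-numbered libraries are paired. The uncalled Klf4 start peak turned to 0.11 under the block and to 0.11 without lung 50-nuclei replicate 3. Without lung 50-nuclei replicate 1, Klf15 turned to 0.26, the Klf6 start peak to 0.16 and the Klf7 start peak to 0.040. Over single left-out libraries these folds ran from -0.67 to 0.11 at Klf4, -0.36 to 0.26 at Klf15, -0.28 to 0.16 at Klf6 and -0.20 to 0.040 at Klf7. The causes were not tested. A reach of 1000 bp left 36 member peaks. Counting 9 peaks inside Klf3 and Klf13 that another gene's end claimed, an alternative chosen after seeing the data, gave 47 peaks and the same 10 calls. Depth limits the weak peaks, where SEs reached 1.66 on the log2 scale.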
